A study of Mus musculus with 6 samples.

Results

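The 36 genes described here encode complement and coagulation factors, plasma proteins that the liver makes and secretes. They were measured in 6 mouse hepatocellular carcinomas (HCC), 2 in each of 3 groups, on 1-colour Agilent arrays. The genes were taken by symbol, 21 of them for clotting and its control and 15 for complement. Probes were assigned to a symbol through their RefSeq accession, and each gene was read from its brightest probe by mean signal. All 36 were found on the array, and all 36 were well above background on all 6 arrays, so the filter on dim probes removed none of them. They are 36 of the 15868 named genes among 27414 features tested.

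The first group held 2 Epcam-derived HCC with CLC, and the second 2 Epcam-derived HCC without CLC. Both came from Epcam-AID mice that had received tamoxifen and a diet with 0.1% DDC for 8 months. DDC is a porphyrinogenic compound used to provoke bile duct injury and a ductular reaction. The third group held 2 Albumin-derived HCC without CLC, from Alb-AID mice killed at 90 weeks of age, for which the labels name neither tamoxifen nor DDC. All mice were of strain C57BL/6. The labels expand neither AID nor CLC, and give neither the sex of the mice nor the age of the Epcam-AID mice. Labelled cell of origin, diet and tamoxifen therefore differ together between the Epcam-derived and the Albumin-derived tumours and cannot be told apart. Age may differ along with them, as it is given for the Alb-AID mice only. The labels do not say whether the 2 tumours of a group came from separate mice, so p-values measure the spread between these samples only.

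Coagulation is a cascade of serine proteases. Tissue factor with factor VII, or the contact system of factor XII, kallikrein and kininogen, leads to thrombin, which turns fibrinogen into fibrin. Anticoagulant proteins restrain thrombin and its cofactors, and plasmin dissolves the clot. Complement starts from lectins or antibodies bound to a surface, or from spontaneous turnover of C3. All routes converge on cleavage of C3 and then C5, after which C6 to C9 assemble a membrane pore. Hepatocytes make most of these proteins, and several of the genes respond to interleukin-6 in the acute phase.

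The 75th percentile of signal, which was subtracted from each array on the log2 scale, lay between 284.6 and 488.1 intensity units. On each array 52.0% to 64.6% of probes exceeded background clearly, with 0 saturated spots, and precision is limited by having 6 arrays. Epcam-derived with CLC replicate 1 and both Albumin-derived arrays shared slide 1, and the other 3 arrays shared slide 2. Slide and group therefore cannot be told apart directly between the Epcam-derived tumours without CLC and the Albumin-derived tumours. The hepatocyte markers were present throughout, with 24 of 24 well above background on both arrays of each group. Of the 12 bile duct markers, 12 were so in Epcam-derived tumours with CLC, 10 in those without CLC and 9 in Albumin-derived tumours.

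Most of the 36 genes were lower in the Epcam-derived than in the Albumin-derived tumours, and a small set, led by C9 in both comparisons, was higher. None of these differences passed the threshold over all features (limma, Benjamini-Hochberg adjusted p under 0.05). In tumours with CLC, 28 of 36 genes were lower and 8 higher than in Albumin-derived tumours. The median log2 difference was -1.06, where the median of all features was -0.01. In Epcam-derived tumours without CLC, 29 were lower and 7 higher, with a median of -0.86, where all features had 0.06. The 2 comparisons share the Albumin-derived arrays and are not independent of each other. In bulk tumour RNA, fewer cells of a type and less RNA per cell cannot be told apart.

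Limma called 0 of the 36 genes in the tumours with CLC, where it called 0.062% of all features (0.0109% higher and 0.0511% lower), and 0 in those without CLC, where it called 0.244% (0.0584% higher and 0.186% lower). At an unadjusted p under 0.05, 24 of the 36 stood out with CLC, where 16% of all features did, and 18 without CLC, where 20% of all features did. The groups did not overlap with CLC for 26 genes that were lower and 5 that were higher, against 27% and 23.8% of all features in those directions and 50.8% in either. Without CLC the same counts of 26 lower and 5 higher stood against 24.8% and 30.4%, and 55.2% in either direction. For the comparison with CLC within slide 1, which leaves 1 tumour with CLC against the 2 Albumin-derived tumours, the median of the 36 genes was -1.02. With slide as a block, the median without CLC was -0.52, the value there resting on the tumours with CLC as the bridge between slides. That fit called 0 features in either comparison. Centring the arrays on the hepatocyte markers turned F9, Plg, Serpinc1, Serpinf2, C3, Hc, Masp1, Mbl1 and Mbl2 above 0 without CLC, and F9, F12, F13b, C3 and Masp1 above 0 with CLC.

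**Figure D1:**
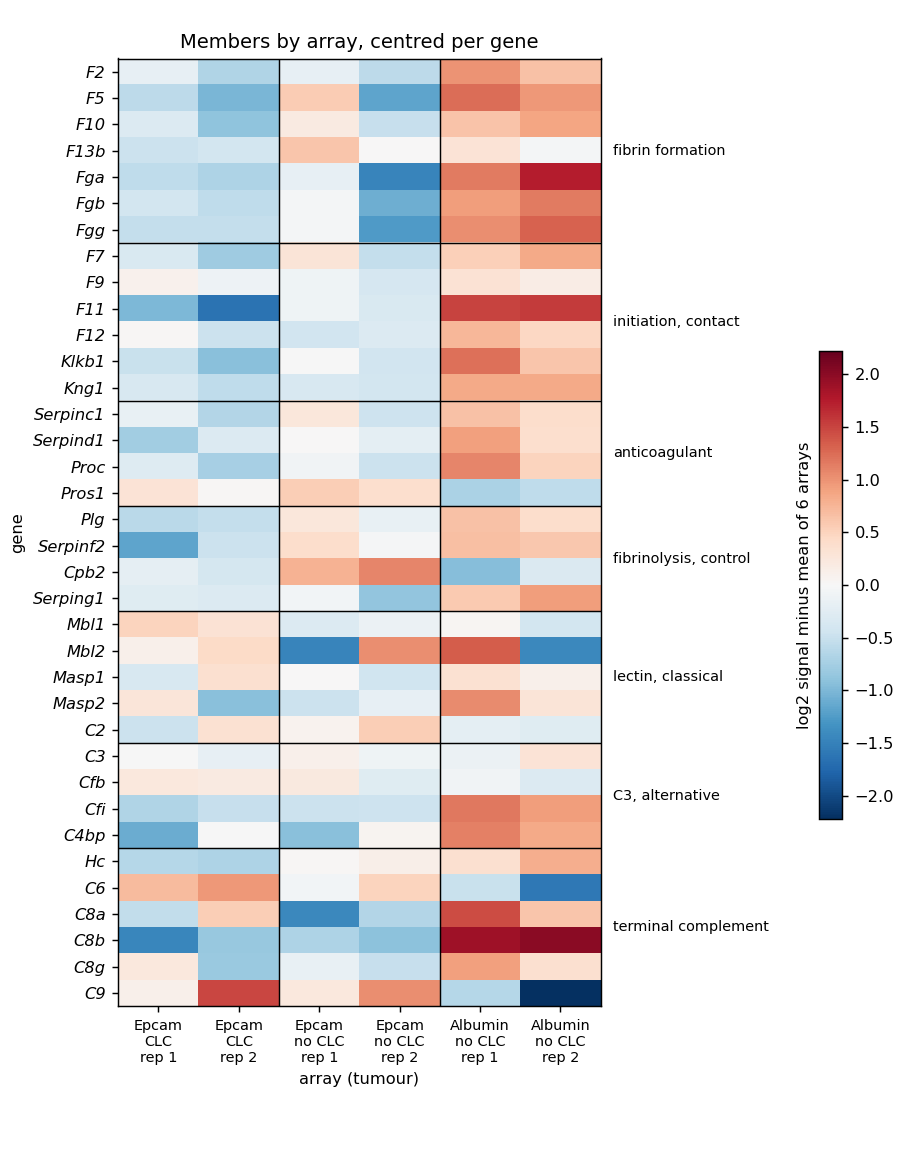
The colour of each cell is the normalised log2 signal of a gene on an array minus that gene's mean over the 6 arrays, with genes in rows grouped by role and arrays in columns. The Albumin-derived columns are mostly red, and the rows of Pros1, C6 and C9 run the other way.

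Of the 7 genes of fibrin formation, 7 were lower with CLC and 6 without CLC than in Albumin-derived tumours, and Fga differed most in both comparisons. Fibrinogen is built from an alpha, a beta and a gamma chain, encoded by Fga, Fgb and Fgg. The log2 signal of Fga was 3.31 and 3.19 in tumours with CLC, 3.70 and 2.42 in those without CLC, and 5.03 and 5.62 in Albumin-derived tumours. Fgb stood at 8.17 and 8.02 with CLC, 8.53 and 7.50 without CLC, and 9.51 and 9.74 in Albumin-derived tumours. Fgg stood at 7.71 and 7.73 with CLC, 8.21 and 6.99 without CLC, and 9.29 and 9.57 in Albumin-derived tumours. For all 3 chains, both Albumin-derived arrays were above the other 4, and Epcam-derived without CLC replicate 2 was the lowest array. On a second Fga probe the lowest array was Epcam-derived without CLC replicate 1, at 1.14, with replicate 2 at 1.84. Against Albumin-derived tumours, Fga was 4.21-fold lower with CLC (log2 difference -2.07 ± 0.48, SE, n = 2 per group, adjusted p = 0.153) and 4.80-fold lower without CLC (-2.26 ± 0.48, adjusted p = 0.112). The log2 difference of Fgg was -1.71 ± 0.44 with CLC (adjusted p = 0.179) and -1.83 ± 0.44 without CLC (adjusted p = 0.132). That of Fgb was -1.53 ± 0.40 with CLC and -1.61 ± 0.40 without CLC. The 3 chains were lower in both comparisons under each scaling of the arrays tried. Without Epcam-derived without CLC replicate 2, their median against Albumin-derived tumours was -1.22 in place of -1.83.

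Fgg, Fga and Fgb lie next to each other on chromosome 3, with 0 protein-coding genes between them in the RefSeq annotation. Their promoters are shown because these neighbours had like differences. Each sequence runs from 250 bases before to 50 bases after the annotated start (RefSeq, GRCm38.p6), 5′ to 3′ on the gene's strand. Capitals mark matches to a C/EBP motif (TTNNGCAA) or a STAT3 motif (TTCNNNGAA), searched on both strands. C/EBP and STAT3 are factors of the acute phase response.
Fga, chr3:83025903-83026202, plus strand: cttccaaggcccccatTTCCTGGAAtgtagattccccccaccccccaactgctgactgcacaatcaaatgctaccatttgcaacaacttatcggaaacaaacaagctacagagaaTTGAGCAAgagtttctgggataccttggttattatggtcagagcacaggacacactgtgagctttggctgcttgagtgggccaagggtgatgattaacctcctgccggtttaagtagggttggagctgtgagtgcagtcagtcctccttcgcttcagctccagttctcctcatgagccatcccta
Fgb, chr3:83049814-83050113, minus strand: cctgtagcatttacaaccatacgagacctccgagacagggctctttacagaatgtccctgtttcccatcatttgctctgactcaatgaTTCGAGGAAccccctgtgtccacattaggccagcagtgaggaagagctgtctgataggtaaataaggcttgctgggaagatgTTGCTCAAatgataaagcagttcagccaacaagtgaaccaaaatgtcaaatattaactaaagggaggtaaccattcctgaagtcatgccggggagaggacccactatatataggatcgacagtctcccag
Fgg, chr3:83007474-83007773, plus strand: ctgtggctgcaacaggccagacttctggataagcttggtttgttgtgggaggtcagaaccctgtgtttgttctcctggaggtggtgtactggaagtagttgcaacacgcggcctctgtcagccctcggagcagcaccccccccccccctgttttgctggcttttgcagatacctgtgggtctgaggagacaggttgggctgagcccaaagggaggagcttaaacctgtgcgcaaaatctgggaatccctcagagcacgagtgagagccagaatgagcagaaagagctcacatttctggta
Fga holds a STAT3 match that begins at -234 and a C/EBP match at -135 from the start. Fgb holds a STAT3 match at -162 and a C/EBP match at -80. Fgg holds neither in this window. A match is a string of letters in the window and was not tested for binding.

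Of the other genes of this step, prothrombin (F2), factor V (F5) and factor X (F10) were lower in both Epcam-derived groups. The log2 signal of F5, the cofactor of factor Xa, was 4.75 and 4.32 with CLC, 5.90 and 4.16 without CLC, and 6.57 and 6.29 in Albumin-derived tumours. The tumours without CLC were 1.74 apart on the log2 scale and spanned the tumours with CLC. F5 differed from Albumin-derived tumours by -1.90 ± 0.59 with CLC (adjusted p = 0.230) and by -1.40 ± 0.59 without CLC. F2 differed by -1.25 with CLC and -1.20 without CLC, and F10 by -1.35 with CLC and -0.91 without CLC. F13b, the carrier subunit of the fibrin-crosslinking factor XIII, lay closest to 0 in this group without CLC, at 0.19 ± 0.31.

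Among the genes that start the cascade, F11 differed most. F11 encodes factor XI, which links the contact system to factor IX. Its log2 signal was 1.69 and 1.05 with CLC, 2.58 and 2.35 without CLC, and 4.19 and 4.25 in Albumin-derived tumours. The 3 groups did not overlap, and the replicates lay close together in Albumin-derived tumours. F11 was 7.21-fold lower with CLC (log2 difference -2.85 ± 0.31, adjusted p = 0.0740) and 3.37-fold lower without CLC (-1.75 ± 0.31, adjusted p = 0.0901) than in Albumin-derived tumours. With slide as a block, the value without CLC was -1.11. Klkb1, which encodes prekallikrein and is the neighbour of F11 on chromosome 8, differed by -1.63 with CLC and -1.14 without CLC.

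On the 75th percentile scaling, all 6 genes of this step were lower in both Epcam-derived groups, with a median of -1.27 with CLC and -1.05 without CLC. F9, encoding factor IX, lay closest to 0, at -0.26 with CLC and -0.48 without CLC, and with CLC F9 turned to 0.06 on the authors' scaling and to 0.61 centred on hepatocyte markers. F7, the partner of tissue factor, differed by -1.24 with CLC and -0.81 without CLC, and F12 by -0.82 with CLC and -0.97 without CLC. Kng1, the kininogen that carries prekallikrein, differed by -1.30 ± 0.24 with CLC (adjusted p = 0.118) and by -1.23 ± 0.24 without CLC (adjusted p = 0.101). Its 3 probes all ran lower, but its paralog Kng2 is near-identical, and cross-hybridisation was not tested.

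Pros1 stood apart from the other anticoagulant genes. Pros1 encodes protein S, the cofactor of activated protein C, which is made outside hepatocytes too. Its log2 signal was 3.93 and 3.66 with CLC, 4.18 and 4.0 without CLC, and 2.92 and 3.06 in Albumin-derived tumours. Each of the 4 Epcam-derived tumours lay above both Albumin-derived tumours. Pros1 was 1.75-fold higher with CLC (log2 difference 0.81 ± 0.26, adjusted p = 0.238) and 2.15-fold higher without CLC (1.1 ± 0.26, adjusted p = 0.126), and a second probe of the gene ran the same way, at 0.95 and 1.71 in that order. Antithrombin (Serpinc1), heparin cofactor II (Serpind1) and protein C (Proc) were lower, by -0.93, -1.18 and -1.31 with CLC and by -0.62, -0.74 and -1.08 without CLC. Of the 6 vitamin K-dependent members (F2, F7, F9, F10, Proc and Pros1), 5 were lower in both comparisons and Pros1 was higher.

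The genes of fibrinolysis and protease control also split. Cpb2 encodes a carboxypeptidase that trims fibrin and slows its lysis. Its log2 signal was 6.24 and 6.07 with CLC, 7.23 and 7.53 without CLC, and 5.51 and 6.14 in Albumin-derived tumours. The tumours without CLC were the 2 highest of the 6, and the other groups overlapped. Cpb2 was 2.95-fold higher without CLC than in Albumin-derived tumours (1.56 ± 0.32, adjusted p = 0.103), and differed by 0.34 ± 0.32 with CLC (adjusted p = 0.649). Plasminogen (Plg), the plasmin inhibitor Serpinf2 and the C1 inhibitor Serping1 differed by -1.08, -1.46 and -1.04 with CLC and by -0.48, -0.46 and -1.23 without CLC. Serpinf2 without CLC turned to 0.02 under quantile normalization.

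Complement genes were less uniform than coagulation genes in the counts of direction. With CLC, 9 of 15 complement genes and 19 of 21 coagulation genes were lower than in Albumin-derived tumours, with medians of -0.22 and -1.25. Without CLC, 11 of 15 and 18 of 21 were lower, with medians of -0.44 and -0.97. The complement median turned to 0.10 with CLC on the authors' scaling and to 0.65 with CLC and 0.20 without CLC after centring on hepatocyte markers, while the coagulation median stayed below 0 under these settings. It was -0.93 with CLC and -0.66 without CLC on the authors' scaling, and -0.39 with CLC and -0.33 without CLC after that centring. The coagulation median without CLC was also nearer 0 with quantile normalization, at -0.59, and without Epcam-derived without CLC replicate 2, at -0.63. Without Albumin-derived replicate 2 the complement median with CLC was -1.01. The difference between the 2 sets was not tested.

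Apart from Masp2, the lectin and classical genes had small differences from Albumin-derived tumours or differed widely between replicates. Mbl1 encodes a mannose-binding lectin, which recognises sugars on microbes. Its log2 signal was 2.52 and 2.34 with CLC, 1.72 and 1.89 without CLC, and 2.07 and 1.63 in Albumin-derived tumours. The tumours with CLC were above the other 4, with a difference from Albumin-derived tumours of 0.58 ± 0.28 (adjusted p = 0.385). Mbl2, the other mannose-binding lectin, stood at 5.68 and 6.00 with CLC, 4.10 and 6.60 without CLC, and 6.91 and 4.13 in Albumin-derived tumours. Its replicates were 2.50 apart without CLC and 2.78 apart in Albumin-derived tumours, the widest gaps among the 36 genes, so no order between groups can be read. C2, the protease of the classical and lectin C3 convertase, stood at 4.86 and 5.68 with CLC, 5.43 and 5.90 without CLC, and 5.13 and 5.08 in Albumin-derived tumours. Its difference without CLC was 0.56 ± 0.37 (adjusted p = 0.433) and turned to -0.26 with slide as a block, and its value with CLC, 0.17, turned to -0.24 within slide 1. The lectin proteases Masp1 and Masp2 differed by -0.22 and -1.0 with CLC and by -0.44 and -1.0 without CLC, Masp2 turning to 0.21 without CLC with slide as a block. The other probes of Masp2 were lower too, at -1.06 and -1.10 with CLC and at -1.14 and -0.70 without CLC.

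C3, the central protein of the cascade, was near 0, at -0.19 ± 0.28 with CLC and -0.07 ± 0.28 without CLC, and had the other sign on the authors' scaling (0.13 and 0.24). Cfb, the protease of the alternative C3 convertase, stood at 6.74 and 6.70 with CLC, 6.72 and 6.22 without CLC, and 6.42 and 6.19 in Albumin-derived tumours. Both tumours with CLC were above both Albumin-derived tumours, by 0.41 ± 0.29 (adjusted p = 0.535). The regulators of this step were lower. Cfi, the protease that inactivates C3b and C4b, stood at 6.32 and 6.50 with CLC, 6.53 and 6.55 without CLC, and 8.17 and 7.94 in Albumin-derived tumours. Cfi was 3.12-fold lower with CLC (-1.64 ± 0.25, adjusted p = 0.0971) and 2.86-fold lower without CLC (-1.52 ± 0.25, adjusted p = 0.0813). C4bp, a cofactor of that protease, differed by -1.53 ± 0.51 with CLC and -1.41 ± 0.51 without CLC. Replicate 2 was about 1 log2 unit above replicate 1 in both Epcam-derived groups, at 7.01 and 5.92 with CLC and at 7.08 and 6.09 without CLC.

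The terminal complement genes parted in both directions. C8b, which encodes the beta chain of C8, had the largest difference of the 36 genes in both comparisons, and C9, which forms the ring of the pore, had the largest in the other direction. The log2 signal of C8b was 0.83 and 1.45 with CLC, 1.60 and 1.37 without CLC, and 4.18 and 4.29 in Albumin-derived tumours. The 4 Epcam-derived tumours overlapped among themselves and lay more than 2 log2 units below both Albumin-derived tumours. C8b was 8.53-fold lower with CLC (-3.09 ± 0.31, adjusted p = 0.0608) and 6.72-fold lower without CLC (-2.75 ± 0.31, adjusted p = 0.0514). It passed the threshold under 6 of 19 alternatives with CLC (adjusted p from 0.0196 to 0.228 over the 19) and 5 of 18 without CLC (from 0.0268 to 0.371). A second C8b probe showed -3.97 with CLC and -3.63 without CLC.

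C9 stood at 4.44 and 5.80 with CLC, 4.56 and 5.36 without CLC, and 3.70 and 2.11 in Albumin-derived tumours. Each Epcam-derived tumour was above both Albumin-derived tumours, but the replicates were 1.36 apart with CLC and 1.59 apart in Albumin-derived tumours. C9 was 4.65-fold higher with CLC (2.22 ± 0.71, adjusted p = 0.239) and 4.15-fold higher without CLC (2.05 ± 0.71, adjusted p = 0.208). With slide as a block the value without CLC was 0.69, and within slide 1 the value with CLC was 1.54. C6, the component that binds C5b, stood at 0.07 and 0.34 with CLC, -0.69 and -0.14 without CLC, and -1.13 and -2.23 in Albumin-derived tumours. The 3 groups did not overlap and were highest with CLC, with differences from Albumin-derived tumours of 1.88 ± 0.44 with CLC (adjusted p = 0.155) and 1.26 ± 0.44 without CLC (adjusted p = 0.211).

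C8a, the alpha chain of C8 and the neighbour of C8b on chromosome 4, stood at 2.43 and 3.53 with CLC, 1.54 and 2.32 without CLC, and 4.41 and 3.59 in Albumin-derived tumours. It was lowest without CLC, where it was 4.19-fold lower than in Albumin-derived tumours (-2.07 ± 0.53, adjusted p = 0.142). The value was -3.16 when slide was a block. With CLC the difference was -1.02 ± 0.53 (adjusted p = 0.413). C8g, the gamma chain, differed by -0.93 with CLC and by -0.97 without CLC, where it turned to 0.10 with slide as a block. Hc, the mouse gene of C5, differed by -1.24 ± 0.27 with CLC (adjusted p = 0.142) and by -0.50 ± 0.27 without CLC (adjusted p = 0.360). The promoters of C8b and C9, the genes at both ends of the range, are shown with the same motifs in capitals.
C8b, chr4:104766067-104766366, plus strand: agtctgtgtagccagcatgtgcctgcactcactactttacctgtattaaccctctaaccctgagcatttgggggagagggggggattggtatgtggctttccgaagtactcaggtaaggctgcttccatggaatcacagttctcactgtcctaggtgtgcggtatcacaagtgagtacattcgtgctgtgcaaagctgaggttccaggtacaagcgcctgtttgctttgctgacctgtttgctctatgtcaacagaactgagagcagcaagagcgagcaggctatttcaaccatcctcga
C9, chr15:6445096-6445395, plus strand: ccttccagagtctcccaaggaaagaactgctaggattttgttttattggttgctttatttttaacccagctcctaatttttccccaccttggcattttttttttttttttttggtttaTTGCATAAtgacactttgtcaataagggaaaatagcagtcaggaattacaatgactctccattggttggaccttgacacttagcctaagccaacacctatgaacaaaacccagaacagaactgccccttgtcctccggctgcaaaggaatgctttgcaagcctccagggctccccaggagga
C9 holds a C/EBP match that begins at -132, and C8b holds neither motif in this window. C6 and C9 lie on chromosome 15 with 8 protein-coding genes between them.

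**Figure D2:**
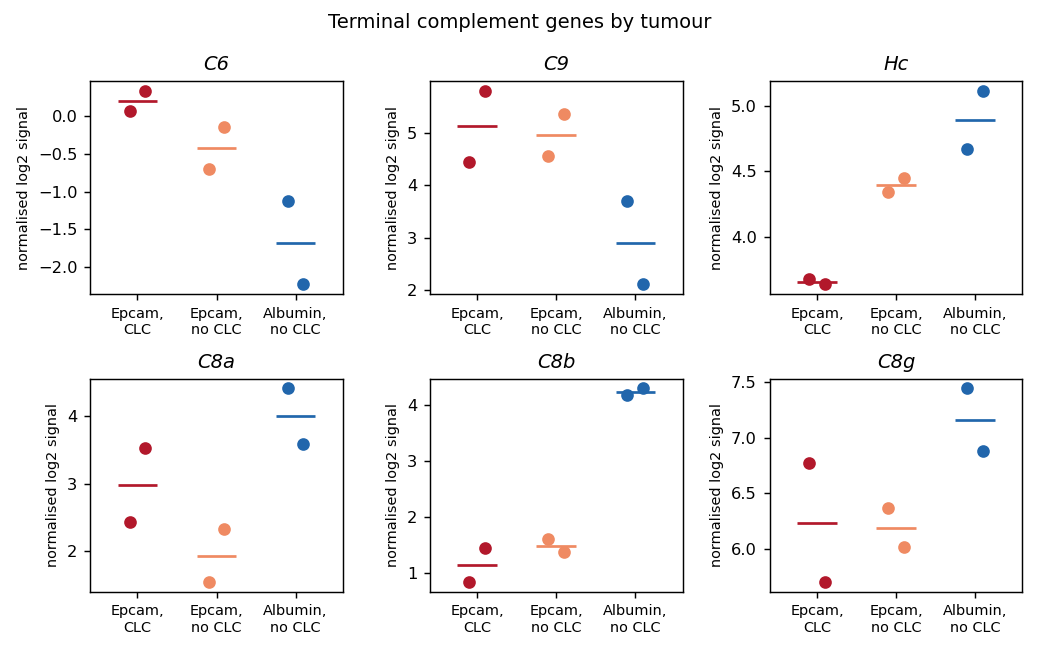
Each point is the normalised log2 signal of a terminal complement gene in a tumour, and each line is the mean of the 2 tumours of a group. The vertical axis has its own range in each panel. C6 and C9 are highest in Epcam-derived tumours, and Hc, C8a, C8b and C8g are highest in Albumin-derived tumours.

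**Figure D3:**
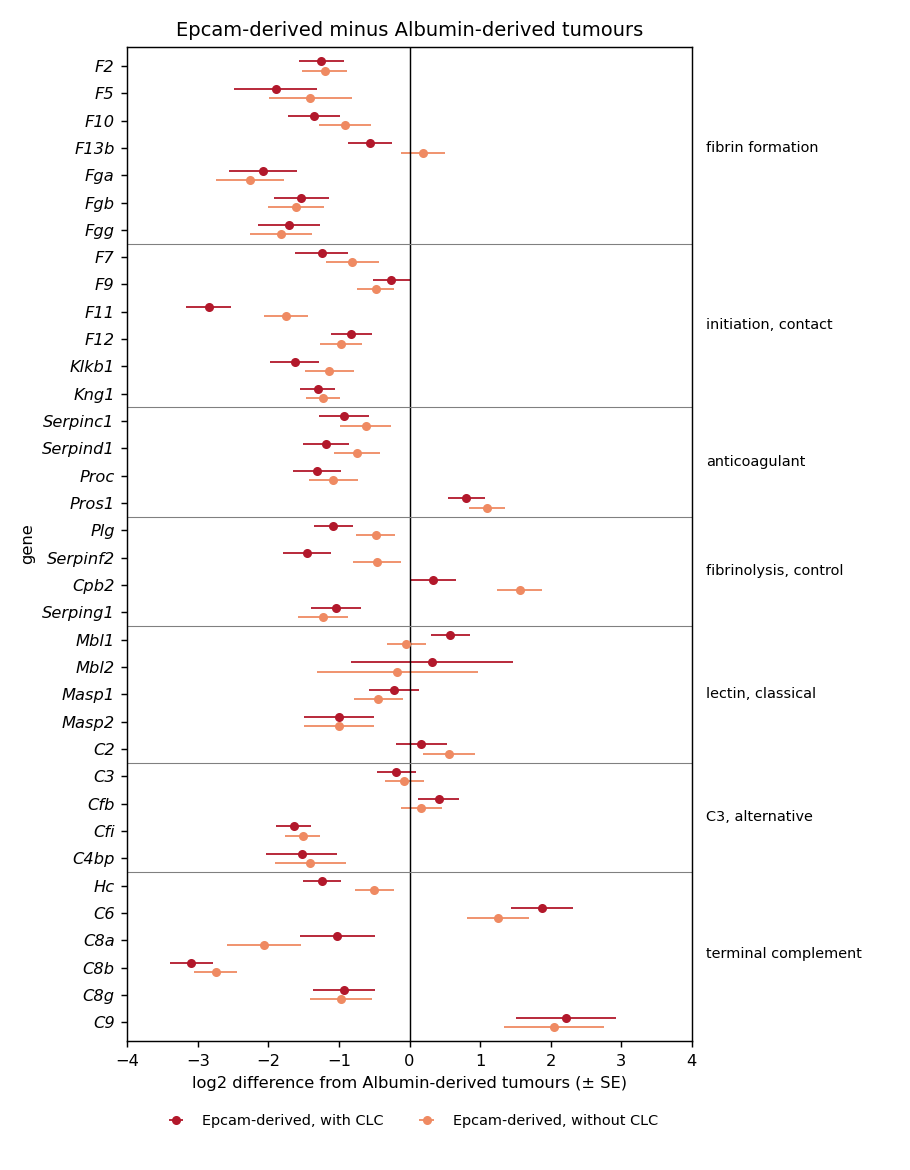
Points are the log2 differences of each gene from Albumin-derived tumours, dark red for Epcam-derived tumours with CLC and orange for those without CLC, and bars are 1 SE from limma (2 tumours per group). C8b lies farthest left, at -3.09 with CLC and -2.75 without CLC, and C9 farthest right, at 2.22 with CLC and 2.05 without CLC.

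Epcam-derived tumours with CLC and those lacking it came from the same line, diet and treatment. The 36 genes were near the median of all features, with 22 lower and 14 higher in tumours with CLC and a median log2 difference of -0.12, where all features had -0.06. This median turned to 0.11, with 20 genes higher, when the arrays were centred on the hepatocyte markers. Limma called 0 of the 36 genes and 0% of all 27414 features, while 4 of the 36 and 3.48% of all features had an unadjusted p under 0.05. The groups did not overlap for 10 genes that were lower and 3 that were higher, against 19.8% and 10.3% of all features in those directions and 30.1% in either. The smallest adjusted p of a member was 0.999.

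Of the 21 coagulation genes, 15 were lower with CLC, and Cpb2 and F11 differed most. Their median of -0.30 was -0.55 without replicate 2 and -0.03 without replicate 1 of the Epcam-derived tumours without CLC. Cpb2, whose values are given above, was 2.34-fold lower with CLC (-1.22 ± 0.32), and F11 was 2.14-fold lower (-1.09 ± 0.31). Serpinf2, the main inhibitor of plasmin, stood at 5.86 and 6.56 with CLC and at 7.41 and 7.01 without CLC, with a difference of -1.0 ± 0.34. F13b stood at 1.98 and 2.04 with CLC and at 3.07 and 2.47 without CLC, with a difference of -0.75 ± 0.31. In these 4 genes both tumours with CLC were below both without CLC. Serpinf2 differed by -0.65 without Epcam-derived with CLC replicate 1, and F13b by -0.45 without Epcam-derived without CLC replicate 1. The 3 fibrinogen chains lay between 0.08 and 0.19, within the spread of the replicates, and all 3 turned below 0 when Epcam-derived without CLC replicate 2 was left out. The second Fga probe went the other way there. On it both tumours with CLC, at 1.53 and 2.00, were above replicate 1 without CLC, at 1.14.

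Of the 15 complement genes, 8 were higher and 7 lower with CLC, and 6 were higher and 9 lower without replicate 1 of the tumours without CLC. C8a was 2.06-fold higher (1.05 ± 0.53), Mbl1 1.54-fold higher (0.62 ± 0.28) and C6 1.54-fold higher (0.62 ± 0.44). The C8a difference was 0.50 without Epcam-derived with CLC replicate 2, 0.65 without Epcam-derived without CLC replicate 1, and 1.59 within slide 2, where 1 tumour with CLC remains. The C6 difference was 0.35 without Epcam-derived without CLC replicate 1. Hc stood at 3.68 and 3.64 with CLC and at 4.34 and 4.45 without CLC, with a difference of -0.74 ± 0.27. Both pairs of Hc values were tight beside the gap between them. C8b and C9 differed by -0.34 ± 0.31 and 0.17 ± 0.71, with overlapping groups, and C9 turned to -0.51 without Epcam-derived with CLC replicate 2. F12, C2, C8g and C4bp changed the sign of their difference within slide 2, which leaves out Epcam-derived with CLC replicate 1.

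**Figure D4:**
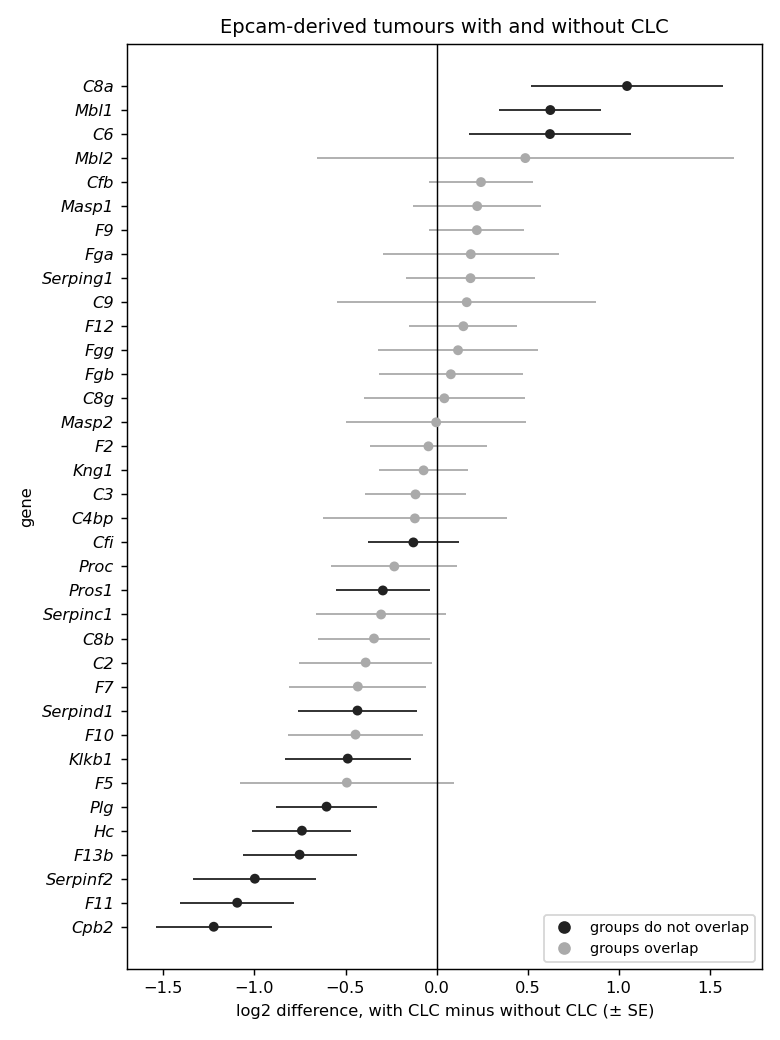
Points are log2 differences, Epcam-derived tumours with CLC minus those without CLC, sorted by size, and bars are 1 SE from limma (2 tumours per group). Black marks the 13 genes whose groups do not overlap, from C8a at 1.05 to Cpb2 at -1.22.

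Several probes were present for 9 of the 36 genes, 47 probes in all. All probes of a gene ran in the same direction for 9 of 9 genes in both comparisons with Albumin-derived tumours and for 7 of 9 between the Epcam-derived groups, where Masp1 and Masp2 differed between probes. Besides the fibrinogen chains, the pairs F7 and F10, F11 and Klkb1, C8b and C8a, and Cfb and C2 are direct neighbours. F7 and F10 were both lower in the Epcam-derived groups. Without CLC, Cfb differed by 0.17 ± 0.29 from Albumin-derived tumours with overlapping groups, and by -0.08 without Epcam-derived without CLC replicate 1.

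The promoters of 28 of the 36 genes were matched in the RefSeq table. The C/EBP letters occurred in 9 of the 28, where 10.8% of all 32851 promoters of this length hold them, and the STAT3 letters in 6 of the 28, where 8.3% do. A FOXA motif (TGTTTAC) occurred in 2 of the 28, the neighbours F11 and Klkb1, where 3.65% do. An HNF4 motif (CAAAGTCCA) occurred in 0 of the 28, where 0.475% do. C9 and Cpb2, higher without CLC than in Albumin-derived tumours, and F11 and Fga, lower there, all hold the C/EBP letters.

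Of 28 other coagulation genes, 27 were tested and limma called 0 in each comparison. Against Albumin-derived tumours, 13 of the 27 were lower and 14 higher with CLC, with a median of 0.03, and 15 were lower and 12 higher without CLC, with a median of -0.13. An unadjusted p under 0.05 was found for 7 with CLC, 7 without CLC and 0 between the Epcam-derived groups. Of all features 16%, 20% and 3.48% had one, in that order. Hgfac, a protease of plasma that activates hepatocyte growth factor, was lowest relative to Albumin-derived tumours, at -2.82 ± 0.68 with CLC (adjusted p = 0.162) and -2.30 ± 0.68 without CLC (adjusted p = 0.175). Kng2, the paralog of Kng1, stood at 5.61 and 5.93 with CLC, 6.10 and 6.14 without CLC, and 7.65 and 8.09 in Albumin-derived tumours. Its differences were -2.10 ± 0.29 with CLC (adjusted p = 0.0821) and -1.75 ± 0.29 without CLC (adjusted p = 0.0813). Serpina10, an inhibitor of factor Xa, differed by -1.45 with CLC. The thrombin receptor F2r differed by 0.82 with CLC and 0.87 without CLC, Tfpi, the inhibitor of tissue factor, by 0.65 with CLC, and tissue factor itself (F3) by 0.53 without CLC. Serpina5, the protein C inhibitor, differed by 2.61 ± 1.55 with CLC and was well above background on 1 of the 2 Albumin-derived arrays. Vwf, the endothelial factor that carries factor VIII, differed by -1.53 ± 0.72 without CLC from Albumin-derived tumours and by 1.63 ± 0.72 between tumours with and without CLC. Its slide 1 arrays, at 1.47, 0.20 and 0.87, were all above its slide 2 arrays, at -0.20, -0.31 and -1.69. The part of slide in these differences was not tested. Hrg, Kng2 and Plaur differed by -0.82, -0.35 and -0.23 and F2rl1 by 0.46 between tumours with and without CLC, F2rl1 being well above background on 1 of the 2 arrays with CLC.

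Of 37 other complement genes, 36 were tested and limma called 0 in each comparison, while 10, 6 and 3 had an unadjusted p under 0.05 with CLC against Albumin-derived, without CLC against Albumin-derived, and with CLC against without CLC. Of all features 16%, 20% and 3.48% had one, in that order. The medians of the 36 other complement genes were 0.13, 0.02 and 0.12 in the same order. Fcna, a ficolin of macrophages, differed from Albumin-derived tumours by 2.35 ± 0.84 with CLC (adjusted p = 0.273) and 2.06 ± 0.84 without CLC (adjusted p = 0.254). The macrophage receptor Vsig4 differed by 2.14 ± 1.12 with CLC, and the C5a receptor C5ar1 and the integrin Itgam by 1.69 ± 0.76 and 1.12 ± 0.27 without CLC. Vsig4 stood at 0.85 and -0.99 with CLC and at -1.08 and -3.34 in Albumin-derived tumours. C5ar1 stood at -0.89 and -1.58 without CLC and at -4.07 and -1.79 in Albumin-derived tumours. For both genes, 1 Albumin-derived array lay close to the nearest Epcam-derived array. Among membrane regulators, Cd59a, which blocks the pore, differed by -1.57 ± 0.29 without CLC (adjusted p = 0.0942), and Cd59b by -1.06 ± 0.41 and Cd46 by -1.16 ± 0.29 with CLC, Cd46 being well above background on 1 array of each of these 2 groups. C1rl, a relative of the classical protease C1r, differed by -1.01 with CLC and -1.57 without CLC. Cfd, the adipocyte-made protease that activates factor B, was well above background in tumours with CLC and in no other group, and it passed the filter on dim probes through that group alone. Cfd was at least 1.90-fold higher with CLC than in Albumin-derived tumours and at least 3.37-fold higher than in tumours without CLC. Each bound was set by the lowest signal well above background or the probe's own signal on the dim arrays. The limma fit, which took the dim arrays as measured, gave adjusted p = 0.146 and 0.729 in that order. As Cfd passed the filter through its bright group alone, these p-values are no test of the bounds. Between the Epcam-derived groups Itgax and Cd59a differed by 0.91 and 0.74, and Cd46 and Itgam by -1.11 and -0.21.

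Of 20 genes for hepatocyte transcription factors and interleukin-6 signalling, 19 were tested and limma called 0 in each comparison. An unadjusted p under 0.05 was found for 3, 3 and 0 of them in the same order, where 16%, 20% and 3.48% of all features had one. Foxa3, a forkhead factor of hepatocytes, stood at 0.05 and 0.52 with CLC, 1.06 and 0.62 without CLC, and 2.20 and 2.16 in Albumin-derived tumours. Its difference from Albumin-derived tumours was -1.90 ± 0.31 with CLC (adjusted p = 0.103) and -1.34 ± 0.31 without CLC (adjusted p = 0.120), and that between the Epcam-derived groups was -0.55 ± 0.31. Prox1 differed by -1.04 with CLC and -0.83 without CLC, and the interleukin-6 receptor Il6ra by -0.78 with CLC and -0.72 without CLC. Nr5a2 differed by 0.93 without CLC, and Foxa1 and Cebpb by 0.58 and 0.35 with CLC. Between the Epcam-derived groups Foxa1 and Il6st differed by 0.62 and 0.43.

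The hepatocyte markers, none of them a member, moved along with the 36 genes. Their summed linear signal was 7020 and 4984 with CLC, 6670 and 5499 without CLC, and 10476 and 9929 in Albumin-derived tumours, relative to each array's 75th percentile. The summed signal of the 36 genes was 3191 and 2923 with CLC, 3794 and 3079 without CLC, and 6188 and 6141 in Albumin-derived tumours. Against Albumin-derived tumours, 22 of 24 hepatocyte markers were lower with CLC, with a median of -0.93, and 21 of 24 without CLC, with a median of -0.69. Of the 36 genes, 21 with CLC and 20 without CLC lay below the median of the hepatocyte markers. Centring each array on these markers moved the median of all features to 0.85 with CLC and 0.70 without CLC, and that of the 36 genes to -0.20 and -0.22. Under that centring limma called F11 and C8b lower and C6 and Pros1 higher with CLC, with adjusted p between 0.0407 and 0.0430. It called C8b lower and Cpb2 and Pros1 higher without CLC, with adjusted p between 0.0465 and 0.0497. Of all 27414 features it called 1710 with CLC and 934 without CLC there, most of them higher.

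**Figure D5:**
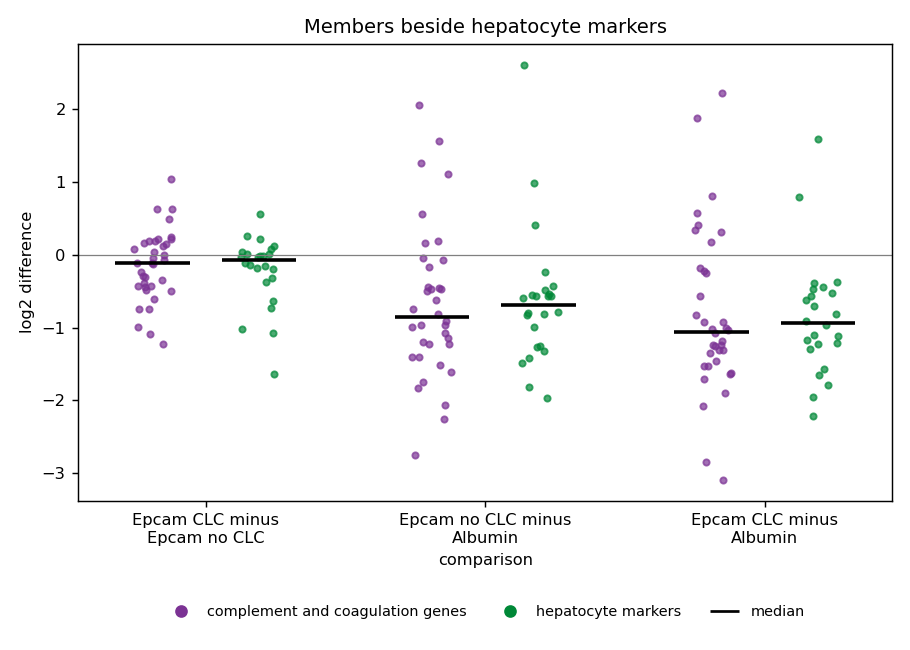
Each point is the log2 difference of a gene in the comparison named on the horizontal axis, purple for the 36 complement and coagulation genes and green for the 24 hepatocyte markers, and black lines are medians. In both comparisons with Albumin-derived tumours the medians of the sets lie close, at -1.06 and -0.93 with CLC and at -0.86 and -0.69 without CLC.

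The summed signal of bile duct markers was higher on both arrays with CLC than on the other 4, and that of endothelial markers overlapped between all 3 groups. Limma called 1 marker of these other cells, Krt23, in 1 comparison. The summed signal of the 12 bile duct markers was 64.0 and 113.6 with CLC, 45.8 and 30.9 without CLC, and 31.9 and 48.4 in Albumin-derived tumours, and 11 of 12 were higher with than without CLC. This linear sum mostly follows its brightest gene. That was Spp1 in the Epcam-derived groups, at log2 5.88 and 6.73 with CLC and 5.41 and 4.81 without CLC. On Albumin-derived replicate 1 it was Krt23, at 4.66, with Spp1 at 1.99, and on replicate 2 Spp1, at 5.20. Krt23, a keratin on that list, was called lower without CLC than in Albumin-derived tumours (-7.12 ± 0.72, adjusted p = 0.0444). It was also lower with CLC, by -5.32, but was not called there. Its log2 signal was -1.52 and -1.47 with CLC, -4.08 and -2.52 without CLC, and 4.66 and 2.98 in Albumin-derived tumours. The summed signal of the 10 macrophage and Kupffer cell markers was 134.2 and 72.6 with CLC, 52.3 and 85.2 without CLC, and 41.3 and 53.5 in Albumin-derived tumours. Endothelial markers summed to 33.4 and 12.9 with CLC, 16.6 and 18.1 without CLC, and 22.4 and 9.56 in Albumin-derived tumours, and their medians differed from Albumin-derived tumours by 0.46 and 0.35 in the first and second group. Stellate cell and fibroblast markers summed to 93.8 and 76.4 with CLC, 103.8 and 44.5 without CLC, and 39.1 and 66.8 in Albumin-derived tumours. Platelet markers, 6 of 7 tested, summed to 6.70 and 4.17 with CLC, 9.18 and 3.84 without CLC, and 2.13 and 2.71 in Albumin-derived tumours. With CLC, the median log2 difference from Albumin-derived tumours was 1.62 for macrophage and Kupffer cell markers and 1.15 for platelet markers. It was 0.61 for stellate cell and fibroblast markers and 0.96 for bile duct markers. Without CLC these medians were 0.68, 1.07, 0.21 and -0.21 in that order. All features had -0.01 with CLC and 0.06 without CLC. On both Albumin-derived arrays, 8 of 10 macrophage and 4 of 6 platelet markers were well above background. The part of any of these cell types in the differences of the 36 genes was not tested.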

How the data were processed

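RNA of 6 frozen tumours was labelled with Cy3 from 0.1 µg of total RNA and hybridised to 1-colour arrays, per the labels' protocols. Agilent Feature Extraction 11.5.1.1 read the spots, and the deposited processed signal is an intensity after background subtraction and removal of spatial trends, per the file headers. The design file of the array refers to mm9, while RefSeq tables on GRCm38.p6 were used for names and promoters. The authors' deposited intensity values per probe equal that signal multiplied by a factor for each array (1.64 to 2.42), and what set the factors is unknown.

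Of 62976 spots, 59305 were not controls and held 56605 probes. Processed signals were put on the log2 scale, the 75th percentile of each array subtracted, and the spots of a probe averaged. A probe was kept (34777 were) if it exceeded background clearly on both arrays of any group, and 5 probes were dropped for outlier spots. The brightest probe stood for each of the 27414 features. All 6 arrays entered 1 limma fit (version 3.58.1, R 4.3.3; version 1.17.8 of data.table and 2.0.0 of jsonlite for reading) with a coefficient per group, 3 residual and 2.61 prior degrees of freedom, and no covariate. P-values were two-sided and Benjamini-Hochberg adjusted over all features, with a threshold of 0.05. The fit was tested on simulated data. Values after ± are standard errors of a log2 difference.

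The members and gene lists were chosen with earlier results of these data known. Values on each array were given for up to 5 members in each direction with the largest differences among those whose groups did not overlap, and differences for up to 3 genes in each direction of each further list. The other values printed, such as those of Fgb, Cfi, Mbl2 and Kng1, were chosen after they were seen. Transferrin, listed as Tf, was matched as Trf. Normexp (offset 50) used the median spot signal, since the deposited columns read here hold no mean signal.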

Additional observations from a re-analysis of the deposited data

How the results depend on the processing

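With only 2 tumours per group, a difference had to be large beside the replicate spread to pass the threshold, and the lists of called features depended on nearly every choice. Between the Epcam-derived groups, 0 features and 0 of the 36 genes were called under all 19 alternatives. The median of the 36 genes there was -0.12 and became 0.11 when centred on hepatocyte markers. Leaving out each array gave -0.31 (without replicate 2 of the Epcam-derived tumours without CLC) to -0.039.

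Epcam-derived without CLC against Albumin-derived tumours gave 67 called features (16 higher, 51 lower). It gave 135 with normexp, 107 with quantile normalization, 106 with the median of each array, 129 on the authors' scaling (63 higher, 66 lower), 934 centred on hepatocyte markers (782 higher, 152 lower), 110 with the mean over a gene's probes, 32 with a filter on all 6 arrays, 1 with no filter, 16 with the 2 groups alone and 0 with slide as a block. Leaving out each array gave 0 to 16. Of the 36 genes, 0 were called, against 1 each with normexp, the median and a trend in eBayes, 2 with the mean over probes and 3 centred on hepatocyte markers. The count of all features called with a trend is not given here, so that member call has no background beside it. Their median of -0.86 became -0.48 with quantile normalization, -0.55 on the authors' scaling (where all features had 0.37), -0.22 centred on hepatocyte markers and -0.52 with slide as a block, and lay between -1.03 and -0.59 with an array left out. The difference of C2 became -0.26 with slide as a block (adjusted p = 0.970, where the alternatives for it ran from 0.133 to 0.970).

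Epcam-derived with CLC against Albumin-derived tumours gave 17 called features (3 higher, 14 lower). It gave 66 with normexp, 66 with quantile normalization, 35 with the median of each array, 39 with a trend, 1710 centred on hepatocyte markers (1572 higher, 138 lower), 1 with no filter, and 0 with the 2 groups alone, slide as a block, within slide 1 or any array left out. Of the 36 genes, 0 were called, against 2 with normexp (F11 and C8b) and with a trend, 1 each with the median, the filter on all 6 arrays and the mean over probes, and 4 centred on hepatocyte markers. For that filter and the mean over probes, the count of all features called is not given here. Those member calls therefore have no background beside them. Their median of -1.06 became -0.83 with quantile normalization, -0.74 on the authors' scaling (all features 0.31) and -0.20 centred on hepatocyte markers, and lay between -1.21 and -0.94 with an array left out. The cause of these changes was not tested.

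Values under the alternatives were counted, in each comparison, only for members with the largest differences among those whose groups did not overlap. Of these values, 502 kept their direction and side of the threshold, 19 passed it, 0 lost it and 1 (C2, above) reversed. As 0 members passed it in the main fit, none could lose it. Differences outside this selection also reversed under some alternatives. Among them were C3, F9, Serpinf2, Masp2 and C8g against Albumin-derived tumours, and Fga, Fgb, Fgg and C9 between the Epcam-derived groups. Replicate numbers only name the tumours: same-numbered deviations correlated at 0.23 (with and without CLC), 0.06 (with CLC and Albumin-derived) and -0.16 (without CLC and Albumin-derived). With replicate number as a block, 11 features were called without CLC against Albumin-derived and 0 in each of the other comparisons.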
